A study of Mus musculus with 6 samples.

Results

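The 10 genes described here are markers of the fibroblast: decorin (Dcn), lumican (Lum), dermatopontin (Dpt), periostin (Postn), Smoc2, Pcolce, gelsolin (Gsn), Serpinf1, Dpep1 and the transcription factor Tcf21. They were chosen by symbol, as fibroblast genes outside the collagens, the elastic fibre genes and the receptors for platelet-derived growth factor, and all 10 were found among the 23404 genes of the table. Messenger RNA came from cardiomyocyte preparations of C57BL/6J mice, sorted on 2 axes, autofluorescence in the green FITC channel and forward scatter (FSC), which is larger for bigger particles. FITChigh cells were bright in FITC and dim in FSC, FITCdim cells were dim in FITC and bright in FSC, and 3 libraries of each were sequenced. Both groups carry the label cardiomyocyte and differ in the labels by the gate alone; no source used here gives age, sex or treatment. The series is about isolating highly purified ventricular cardiomyocytes, and the fibroblast genes bear on how much fibroblast RNA stood in each gate.

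Fibroblasts of the heart lie between the myocytes and make the collagen network that carries force through the ventricle wall. In mice they arise largely from the epicardium, and Tcf21 is needed for that step. Their matrix holds collagen fibrils, small leucine-rich proteoglycans such as decorin and lumican that coat the fibrils, and matricellular proteins such as periostin that signal to cells rather than bear load. Periostin is known to be switched on in activated fibroblasts after injury, whereas decorin, gelsolin and dermatopontin are abundant in resting ones.

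Fibroblast markers were low in FITChigh, Smoc2 excepted. Of the 10 genes, 9 passed the filter on low values (3 or more of the 6 libraries with a value of 1 or above) and were tested. In FITChigh 8 of these fell, by 1.66-fold for Pcolce up to 9.05-fold for Dcn, 1 (Smoc2) did not pass, and Tcf21 was not tested. The count was 5 without FITChigh replicate 3, FITCdim replicate 1 or FITCdim replicate 3, and 5 with quantile normalization. Over all 12907 genes tested, 13.5% were called lower (1748 genes) and 2.51% higher (324 genes; 1064 with the title tag as a replicate block, 41 with one common total, and 67, 185 and 148 without FITChigh replicate 1, FITChigh replicate 2 and FITCdim replicate 1). In adjusted counts the gates did not overlap, with FITChigh lower, for 8 of the 9 genes and for 20.2% of all genes tested. For Serpinf1, 1 of these 8, the nearest libraries of the gates had 2 reads each. None of the 9 was called higher by limma, none at an unadjusted p below 0.05 (0 genes) and none by limma-voom on recovered reads (0 genes). The median log2 fold change was -1.93 over the 9 genes and -0.01 over all genes tested. Since these are bulk samples, fewer fibroblasts and less RNA per fibroblast cannot be told apart, and the part of other cells was not tested. Levels are adjusted read counts as the authors deposited them, errors after ± are SDs over 3 libraries, and tests are limma-trend on log2(value + 1), FITChigh over FITCdim, with Benjamini-Hochberg adjustment over all genes at 0.05.

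Library depth was 1589825 to 2931045 recovered reads for FITChigh and 1705626 to 3345994 for FITCdim, and a value equal to 1 read was 0.607 to 1.54 adjusted counts. Heart muscle markers dominated both gates: 10 such genes summed to 368800 to 389100 adjusted counts in FITChigh and 237900 to 288800 in FITCdim. The 10 fibroblast genes summed to 206 to 223 in FITChigh and 581 to 1021 in FITCdim. That is 0.00881% to 0.00917% of all adjusted counts in FITChigh and 0.0275% to 0.0503% in FITCdim. FITCdim replicate 1 stood apart from the other FITCdim libraries: 8 of the 10 genes were highest there, and its sum of 1021 compares with 581 and 602 in FITCdim replicates 2 and 3. It was also the deepest library. In the same library all 11 detected macrophage and blood markers were at their FITCdim maximum, as were 7 of 10 endothelial markers. So were 23 of 35 other fibroblast markers. Fewer were among small leucine-rich proteoglycans (3 of 10), relatives of the 10 genes (5 of 14) and cardiomyocyte markers (2 of 10). The share over all genes was not counted.

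**Figure D1:**
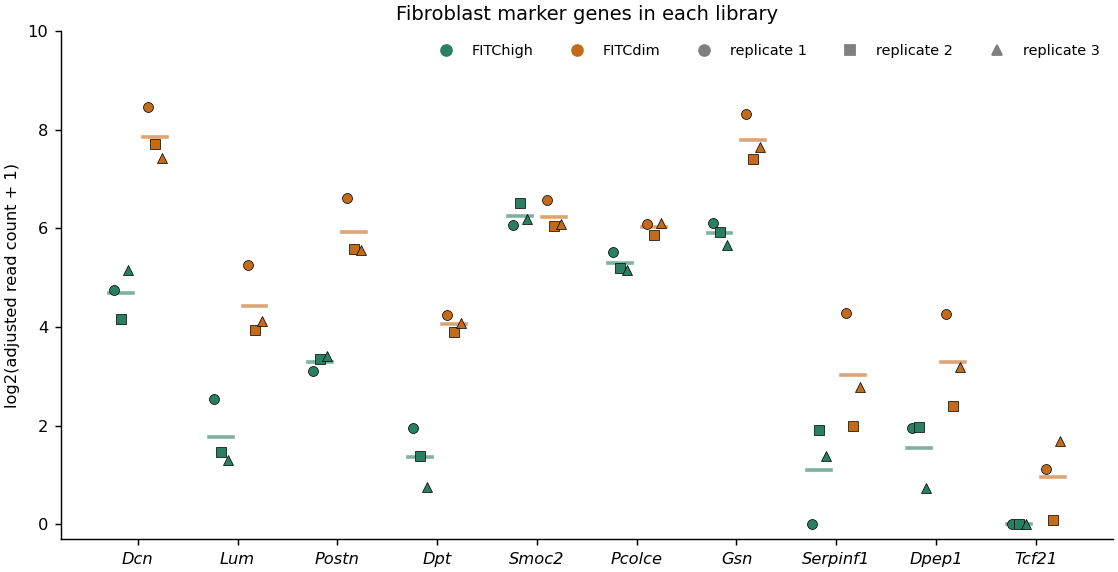
Each of the 10 genes is on the x axis and log2(adjusted read count + 1) on the y axis, with 1 point per library (green FITChigh, orange FITCdim, shape by replicate) and a bar at the mean of the 3 log2 values. The gates are apart for 8 genes, interleaved for Smoc2, and near 0 for Tcf21 in both.

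Dcn, a proteoglycan that binds collagen fibrils and growth factors of the TGF-beta family, showed the widest gap. It had 25.8, 16.8 and 34.8 adjusted counts in the FITChigh libraries, against 350.1, 207 and 172 in the FITCdim libraries. The gates did not overlap, and the lowest FITCdim library was well above the highest FITChigh library. Dcn fell by 3.18 on the log2 scale (SE 0.27, limma adjusted p = 7.7e-07, 95% interval of the log2 fold change -3.76 to -2.60). When FITCdim replicate 1 was left out, the log2 fold change was -2.88 (limma adjusted p = 2.3e-07). Only 0.449% of all genes tested had a more negative fold change. Dcn lies on chromosome 10 at 97479609 to 97518143 (plus strand, mm10).

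Lum, the partner proteoglycan lumican, lies 47.0 kb from Dcn on the same strand, at 97565128 to 97572703. It had 4.82, 1.77 and 1.46 adjusted counts in FITChigh, against 37.2, 14.3 and 16.3 in FITCdim. All FITChigh values were below all FITCdim values, but they rest on 8 recovered reads in FITChigh and 83 in FITCdim. Lum fell by 2.66 (SE 0.47, limma adjusted p = 7.7e-04), with a log2 fold change of -2.25 when FITCdim replicate 1 was left out (adjusted p = 0.0074). The next genes of this cluster, Kera (keratocan) and Epyc (epiphycan), proteoglycans of the same family, were listed at 0 in all 6 libraries.

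Dpt, a small matrix protein known to bind decorin, lies on chromosome 1 at 164796644 to 164824266. It had 2.89, 1.61 and 0.695 adjusted counts in FITChigh, against 17.9, 13.8 and 16 in FITCdim, the tightest FITCdim spread among the genes that fell most. Dpt fell by 2.70 (SE 0.44, limma adjusted p = 3.7e-04), with a log2 fold change of -2.62 when FITCdim replicate 1 was left out (adjusted p = 0.0031). The pseudocount pulls such low genes towards no change: in recovered reads (5 in FITChigh, 54 in FITCdim) the FITChigh to FITCdim ratio was 0.104 (exact 95% interval 0.0326 to 0.259, counting error only).

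Postn, periostin, had 7.61, 9.19 and 9.61 adjusted counts in FITChigh, against 97.7, 46.7 and 46.2 in FITCdim. FITChigh was narrow and far below FITCdim, whose replicate 1 was 2.11 times the mean of its other libraries. Postn (chromosome 3, 54361109 to 54391037) fell by 2.63 (SE 0.32, limma adjusted p = 2.3e-05), with a log2 fold change of -2.28 when FITCdim replicate 1 was left out (adjusted p = 7.0e-05).

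Smoc2, a calcium-binding matricellular protein related to SPARC (chromosome 17, 14279506 to 14404790), did not follow the other matrix genes. It had 65.8, 90.7 and 72.3 adjusted counts in FITChigh, against 94.3, 64.9 and 67.5 in FITCdim, so the gates interleaved. The means were 76.3 ± 12.9 in FITChigh and 75.6 ± 16.3 in FITCdim (n = 3 each), with a log2 fold change of 0.02 (SE 0.20, limma adjusted p = 0.96). Its 95% interval, -0.41 to 0.45, leaves room for a FITChigh to FITCdim ratio of 0.752 to 1.37. The sign of this small difference turned with each library scaled to one common total (-0.18), with limma-voom (-0.026), and without FITChigh replicate 2 (-0.11), FITCdim replicate 2 (-0.08) or FITCdim replicate 3 (-0.05). At 220 reads in FITChigh and 264 in FITCdim, Smoc2 had more reads behind it than Postn or Pcolce.

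Pcolce encodes the enhancer of the protease that trims procollagen before fibrils form. It had 45, 35.8 and 34.8 adjusted counts in FITChigh, against 67.6, 57.3 and 68.3 in FITCdim. The libraries did not overlap, yet the gap was the smallest of the genes that fell: 0.73 on the log2 scale (SE 0.21, limma adjusted p = 0.024). The fold change moved little where the call was lost: leaving out FITChigh replicate 2 gave -0.68 (adjusted p = 0.063) and FITChigh replicate 3 gave -0.67 (0.068), while leaving out FITCdim replicate 1 gave -0.70 (0.091) and FITCdim replicate 3 gave -0.69 (0.076). Its adjusted p spanned 0.0047 to 0.091 over 15 alternatives. Pcolce lies on chromosome 5 at 137605103 to 137613784, where its exons overlap those of Fbxo24 on the same strand and of an antisense gene. Fbxo24 stood at no more than 1.41 adjusted counts in any library, and the use of strand in the counting is not given in the sources used here.

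Gsn, gelsolin, which cuts actin filaments and has a secreted and a cytoplasmic form, was the highest of the 10 genes per length in both gates. It had 67.9, 59.9 and 49.7 adjusted counts in FITChigh, against 318, 169 and 200 in FITCdim, with no overlap. Gsn (chromosome 2, 35256380 to 35307892) fell by 1.89 (SE 0.21, limma adjusted p = 1.1e-05), with a log2 fold change of -1.63 when FITCdim replicate 1 was left out (adjusted p = 1.2e-05).

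Serpinf1 (pigment epithelium-derived factor, a secreted serpin that restrains vessel growth) and Dpep1 (a membrane dipeptidase that also cleaves a leukotriene) were close to the detection limit in FITChigh. Serpinf1 had 0, 2.77 and 1.6 adjusted counts in FITChigh, against 18.6, 3.00 and 5.92 in FITCdim. Dpep1 had 2.88, 2.92 and 0.667 in FITChigh, against 18.3, 4.24 and 8.14 in FITCdim. In adjusted counts neither overlapped between gates, but the highest FITChigh library came close to the lowest FITCdim library in both. Serpinf1 had 2 reads in each of these libraries (FITChigh replicate 2 and FITCdim replicate 2), so its lack of overlap rests on the adjustment. Behind them stood 4 and 6 reads in FITChigh and 35 and 38 reads in FITCdim. Serpinf1 fell by 1.93 (SE 0.63, limma adjusted p = 0.049) and Dpep1 by 1.73 (SE 0.55, limma adjusted p = 0.040).

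Both calls were lost when certain libraries were left out. Without FITCdim replicate 1, in which Serpinf1 was 4.17 and Dpep1 2.96 times the mean of the other FITCdim libraries, the fold change was smaller, at -1.30 for Serpinf1 (adjusted p = 0.31) and -1.24 for Dpep1 (adjusted p = 0.26). It was also smaller for Serpinf1 without FITChigh replicate 1 (-1.38, adjusted p = 0.20) and for Dpep1 without FITChigh replicate 3 (-1.32, adjusted p = 0.13). In the other calls lost by leaving out a library the fold change was at least as large as with all libraries. Serpinf1 stood at -2.07 without FITChigh replicate 3 (adjusted p = 0.066) and -2.05 without FITCdim replicate 3 (0.079). Dpep1 stood at -1.93 without FITChigh replicate 1 (adjusted p = 0.057) and -1.78 without FITCdim replicate 3 (0.083). Across the 14 alternatives that tested them, Serpinf1 spanned adjusted p-values of 0.017 to 0.31 and Dpep1 of 0.014 to 0.26. Serpinf1 lies on chromosome 11 at 75409769 to 75422701 and Dpep1 on chromosome 8 at 123186242 to 123201812. Serpinf2, the antiplasmin gene that lies 9.0 kb from Serpinf1, had 1 read in each gate.

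Tcf21, the basic helix-loop-helix factor that marks the cardiac fibroblast lineage, was listed at 0 in all 3 FITChigh libraries and had 1.18, 0.0593 and 2.22 adjusted counts in FITCdim. These are 0 reads in FITChigh and 4 in FITCdim, namely 2, 0 and 2. A count of 0 allows up to 3 reads, or 2.39 to 4.61 adjusted counts per FITChigh library, so no difference was detectable at this depth. With no filter on low values the fold change was -0.97 (SE 0.47, limma adjusted p = 0.21). Tcf21 lies on chromosome 10 at 22817281 to 22820174.

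**Figure D2:**
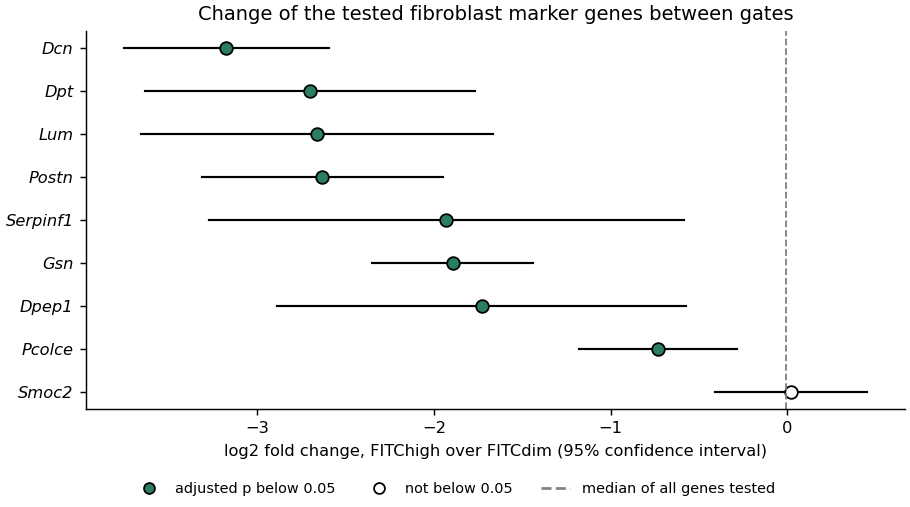
The x axis is the log2 fold change of FITChigh over FITCdim with its 95% confidence interval, for the 9 tested genes in order of change; filled points have an adjusted p below 0.05 and the dashed line is the median of all genes tested (-0.01). Dcn lies farthest left at -3.18, and Smoc2 alone spans 0.

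The share of each gene in the summed level of the 10 was also compared. Dcn made up 12.0% ± 4.7 of that sum in FITChigh and 32.8% ± 3.8 in FITCdim (n = 3 each). Smoc2 made up 35.2% ± 5.7 in FITChigh and 10.5% ± 1.1 in FITCdim, and Pcolce 17.8% ± 2.1 in FITChigh and 9.27% ± 2.4 in FITCdim (n = 3 each). Gsn held 27.2% ± 3.2 in FITChigh and 31.2% ± 2.0 in FITCdim (n = 3 each). Per kb of merged exons, the order in FITCdim was Gsn at 72.6 ± 24.9 adjusted counts per kb, Dcn at 41.6 ± 16.2, Pcolce at 16.8 ± 1.6 and Smoc2 at 10.9 ± 2.3 (n = 3). In FITChigh it was Gsn at 18.7 ± 2.9, Smoc2 at 11 ± 1.9, Pcolce at 10.1 ± 1.5 and Dcn at 4.42 ± 1.5 (n = 3); Smoc2 and Pcolce lay within their spread of each other there.

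The log2 ratio of Smoc2 to Dcn was 1.57 ± 0.70 in FITChigh and -1.63 ± 0.28 in FITCdim (n = 3 each), a difference of 3.20. That of Pcolce to Dcn differed by 2.45 and that of Gsn to Dcn by 1.28 between FITChigh and FITCdim. In all of these the libraries of one gate lay apart from the other. The pairs were chosen with the fold changes known, so the ratios are given as a description, with no test.

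**Figure D3:**
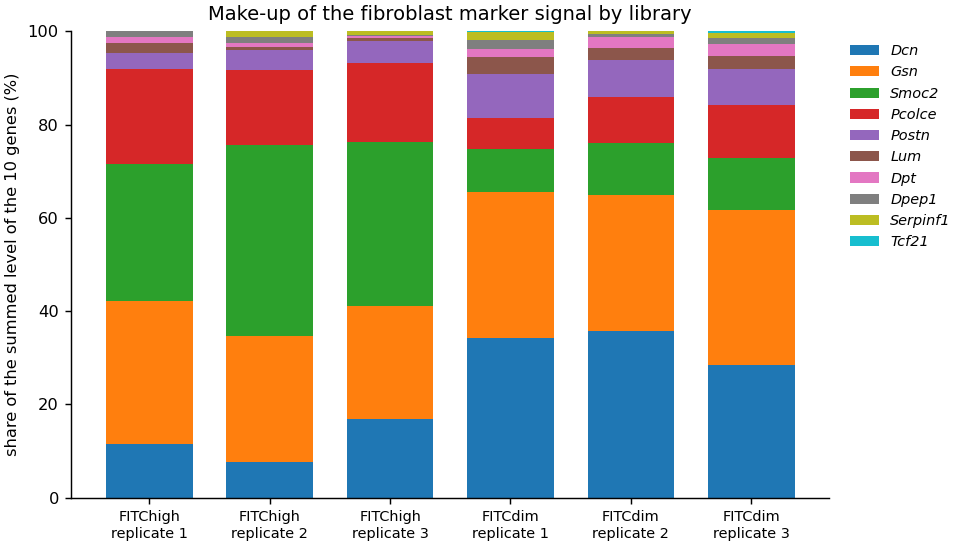
Stacked bars give, for each library, the share of every gene in the summed adjusted read count of the 10 genes (in percent, not divided by gene length). Smoc2 and Pcolce take more of the bar in the FITChigh libraries on the left, and Dcn and Postn more in the FITCdim libraries on the right.

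Close relatives of the 10 genes were also divided. The table holds 19 relatives, of which 12 were tested. In FITChigh 7 of these fell and the other 5 missed the threshold, against 13.5% called lower over all genes tested. With FITCdim replicate 1 left out, 5 of 11 tested fell. Fmod (fibromodulin), a proteoglycan near lumican, had 0.333 ± 0.548 adjusted counts in FITChigh and 41.1 ± 13.4 in FITCdim (n = 3 each). With 1 read in FITChigh against 141 in FITCdim, its read ratio was 0.00800 (exact 95% interval 2.0e-04 to 0.0453), and it passed the filter on low values through FITCdim alone. Bgn (biglycan), the nearest relative of decorin, had 26.7, 27.9 and 32.0 in FITChigh, against 360, 233 and 171 in FITCdim (log2 fold change -3.03, SE 0.23, limma adjusted p = 2.2e-07). Smoc1, the sister gene of Smoc2, had 3.85, 2.99 and 0.642 in FITChigh, against 19.1, 23.0 and 9.49 in FITCdim (-2.44, SE 0.49, limma adjusted p = 0.0024). The log2 ratio of Smoc2 to Smoc1 was 4.60 ± 0.85 in FITChigh and 2.14 ± 0.63 in FITCdim (n = 3 each).

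Pcolce2, the sister of Pcolce, had 25.6 ± 3.5 adjusted counts in FITChigh and 27.6 ± 4.9 in FITCdim (n = 3 each; -0.09, SE 0.27, limma adjusted p = 0.86). The log2 ratio of Pcolce to Pcolce2 was 0.57 ± 0.03 in FITChigh and 1.21 ± 0.36 in FITCdim (n = 3 each). Svil (supervillin), an actin-binding relative of gelsolin found in muscle and the relative with the highest level, had 1348 ± 268 in FITChigh and 1067 ± 181 in FITCdim (n = 3 each; 0.33, SE 0.16, limma adjusted p = 0.20).

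The wider set of fibroblast markers was lower in FITChigh in most but not all members. The table holds 37 such genes and 32 were tested. Of these 23 fell and the other 9 missed the threshold (median -2.01, log2), against 13.5% called lower over all genes tested. Without FITCdim replicate 1, 28 were tested and 16 fell. Pdpn (podoplanin), a membrane glycoprotein of fibroblasts and lymphatics, had 0 reads in FITChigh and 7.12, 10.9 and 5.83 adjusted counts in FITCdim. With 3 reads over FITChigh as the floor and the FITCdim reads taken as exact, Pdpn was at least 7.68-fold lower. The exact interval of its FITChigh to FITCdim read ratio, which also holds the counting error of FITCdim, reached up to 0.172. Pdpn, Cilp and Fap passed the filter through FITCdim alone, with every FITChigh value under 1, so a difference was a condition of their being tested. Meox1, a homeobox factor linked to fibroblast activation, had 3.12 ± 1.69 in FITChigh and 31.2 ± 3.5 in FITCdim (n = 3 each; -3.05, SE 0.39, limma adjusted p = 4.1e-05). Islr, a secreted leucine-rich protein, had 0, 0.128 and 3.40 in FITChigh, against 18.4, 13.6 and 7.15 in FITCdim (limma adjusted p = 0.0021). The marker with the highest mean over both gates, Gas6, a secreted ligand of receptor tyrosine kinases, fell less, with 282 ± 15 in FITChigh and 400.2 ± 46.1 in FITCdim (n = 3 each; -0.50, SE 0.14, limma adjusted p = 0.018).

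Like Smoc2, some abundant markers of this wider set did not pass the test. They are named here after their values were seen. Prrx1, a homeobox factor of mesenchyme, had 238 ± 37 in FITChigh and 192 ± 23 in FITCdim (n = 3 each; 0.30, 95% interval -0.03 to 0.64). Htra1, a secreted protease, had 336 ± 28 in FITChigh and 309 ± 60 in FITCdim (n = 3 each; 0.13, 95% interval -0.19 to 0.46). Fbln1, a matrix glycoprotein, had 169 ± 14 in FITChigh and 188 ± 23 in FITCdim (n = 3 each; -0.15, 95% interval -0.47 to 0.17).

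Small leucine-rich proteoglycans, the family of decorin and lumican, were split. Besides these the table holds 14, of which 8 were tested. Of the 8, 4 fell and 4 missed the threshold (median -2.03), against 13.5% called lower over all genes tested. Without FITCdim replicate 1, 3 of 7 tested fell. Fmod, 1 of the 4 that fell, passed the filter through FITCdim alone. Besides Fmod and Bgn, Prelp fell to 6.95 ± 4.47 in FITChigh, against 62.9 ± 15.6 in FITCdim (n = 3 each; -3.21, SE 0.44, limma adjusted p = 7.3e-05). Aspn (asporin) fell to 3.57 ± 1.48 in FITChigh, against 36.6 ± 6.0 in FITCdim (n = 3 each; -3.09, SE 0.37, limma adjusted p = 1.9e-05). Ogn (osteoglycin, also called mimecan), the gene of the list with the highest mean over both gates, had 294, 266 and 326 in FITChigh, against 266, 265 and 244 in FITCdim. Its gates overlapped (0.19, SE 0.14, limma adjusted p = 0.41; 95% interval -0.10 to 0.48).

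Matricellular genes, the class of periostin and Smoc2, mostly fell. The table holds 21, of which 19 were tested. Of these 13 fell and 6 missed the threshold (median -1.95), against 13.5% called lower over all genes tested. Without FITCdim replicate 1, 15 were tested and 8 fell. Tnc (tenascin C), a glycoprotein of remodelling tissue, had 0 reads in FITChigh and 5.97, 3.94 and 8.97 adjusted counts in FITCdim. On the same floor, with the FITCdim reads taken as exact, Tnc was at least 6.20-fold lower. The exact interval of its FITChigh to FITCdim read ratio reached up to 0.217. Tnc, Comp and Spon2 passed the filter through FITCdim alone. Ecm2, a matrix protein with leucine-rich repeats, fell by 2.72 (SE 0.32, limma adjusted p = 1.8e-05). Sparcl1, a relative of SPARC that is also abundant in vessels, fell by 2.60 (SE 0.16, limma adjusted p = 4.7e-08), to 147 ± 30 in FITChigh against 890 ± 117 in FITCdim (n = 3 each). Cyr61, a matricellular gene induced by stretch and the one with the highest mean over both gates, had 1095 ± 155 in FITChigh and 863 ± 66 in FITCdim (n = 3 each; 0.34, SE 0.14, limma adjusted p = 0.11).

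The enzymes that process procollagen, among which Pcolce acts, had the median nearest 0 of the 6 fibroblast and matrix lists. The table holds 26, of which 23 were tested. Of these 4 fell and 19 missed the threshold (median -0.20). Over all genes tested 13.5% were called lower, so the count of 4 stands near the share of all genes. Those that fell were low: Loxl2 (a lysyl oxidase that crosslinks collagen) at -2.70, Mrc2 (a collagen uptake receptor) at -2.37, the protease gene Tll1 and Lox, the main lysyl oxidase of heart matrix, at -1.83. Tll1 had 0 reads in FITChigh and 10 in FITCdim, and passed the filter through FITCdim alone. Loxl2 and Mrc2 had 3.05 ± 2.4 and 1.69 ± 0.19 adjusted counts in FITChigh, and 21.1 ± 4.2 and 13.3 ± 3.8 in FITCdim (n = 3 each; limma adjusted p = 0.0015 and 8.7e-04). Without FITCdim replicate 1, 2 of 22 tested fell, and with quantile normalization 2 of 23. P4hb, the shared subunit of the collagen prolyl hydroxylases and the most abundant of the list, had 599.9 ± 19.6 in FITChigh and 602 ± 25 in FITCdim (n = 3 each; 0.00, 95% interval -0.26 to 0.25).

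Tcf21 binds DNA as a dimer with an E protein, and Id proteins block such dimers. Of the 7 genes of both kinds, all tested, 6 fell and 1 (Id4) did not pass (median -1.52). The share called lower over all genes tested was 13.5%. With quantile normalization, or without FITCdim replicate 1, 4 of the 7 fell. Tcf4, the E protein with the highest level, had 89.9 ± 12.8 in FITChigh and 296 ± 40 in FITCdim (n = 3 each; -1.71, SE 0.16, limma adjusted p = 1.9e-06). Id1 fell by 2.56 (SE 0.39, limma adjusted p = 2.0e-04) and Id3 by 1.98 (SE 0.35, limma adjusted p = 7.6e-04). These genes are also expressed by vessel cells.

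Across the 6 lists of fibroblast and matrix genes, which share some members, 95 distinct genes were tested. Of these 52 were called lower and 0 higher, against 13.5% and 2.51% of all genes tested. The count of calls was 34 without FITCdim replicate 1. Among the 52, Pdpn, Cilp, Fap, Tnc, Comp, Spon2, Tll1 and Fmod passed the filter through FITCdim alone. For these a difference was a condition of being tested. At an unadjusted p below 0.05, 5 of the 95 genes were higher, and limma-voom on recovered reads called 0 higher. With the title tag as a replicate block 5 were called higher (Bmp1, Cyr61, Flii, P4ha2 and Svil).

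**Figure D4:**
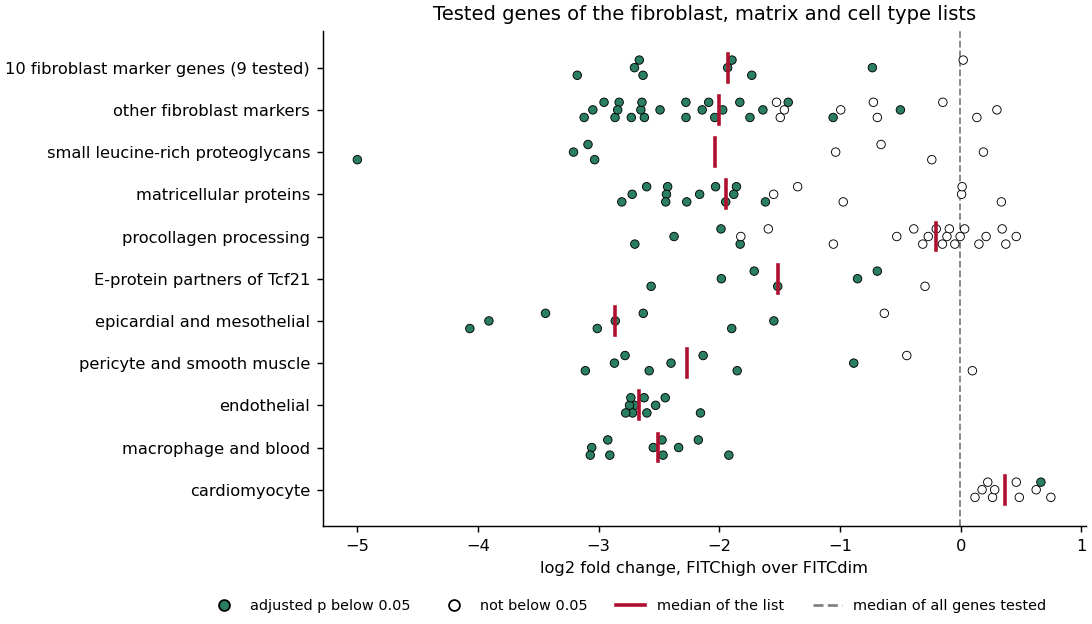
Each point is a tested gene, placed by its log2 fold change of FITChigh over FITCdim (x axis) and its list (rows); filled points have an adjusted p below 0.05, red bars are list medians and the dashed line is the median of all genes tested. Procollagen processing is centred near the dashed line with a median of -0.20, while the endothelial, macrophage and epicardial lists lie wholly to its left.

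Markers of other non-muscle cells fell alongside the fibroblast genes, while 13.5% of all genes tested were called lower. All 10 endothelial markers fell (median -2.66), with summed levels of 715 to 1018 in FITChigh and 5146 to 5731 in FITCdim. All 10 tested macrophage and blood markers fell (median -2.51; sums 94.0 to 130 in FITChigh and 489 to 1114 in FITCdim), while Fcgr1 was at 0 in FITChigh and not tested. Of 9 tested epicardial and mesothelial markers 8 fell (median -2.86; sums 13.3 to 24.2 in FITChigh and 102 to 248 in FITCdim), and Bnc1 was at 0 in FITChigh. Without FITCdim replicate 1 that count was 5 of 7 tested, without FITCdim replicate 2 also 5 of 7, and with quantile normalization 5 of 9. Upk1b of that list passed the filter through FITCdim alone. The markers with the highest mean over both gates in these lists were Fabp4 (endothelial, -2.45), Lyz2 (macrophage, -2.47) and Wt1 (epicardial, -3.01), all past the test. Of 10 pericyte and smooth muscle markers 8 fell (median -2.27; sums 1378 to 1833 in FITChigh and 1862 to 2445 in FITCdim), and 6 of 10 without FITCdim replicate 1. The highest of them, Abcc9, a potassium channel subunit that heart muscle also makes, stood at 0.10 (limma adjusted p = 0.78).

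Of the Schwann cell markers, S100b, Ncmap and Gfra3 were at 0 in FITChigh and had only 1, 1 and 3 reads in FITCdim. Of the erythroid markers, Hba-a1 and Hba-a2 were at 0 in all 6 libraries. Alas2 was at 0 in FITChigh and had 10 reads in FITCdim, and no erythroid marker was tested. The share called higher over all genes tested was 2.51%. Among 10 cardiomyocyte markers 1 (Tnni3) rose and 9 missed the threshold (median 0.37), Myh6, the highest, with 0.75 (limma adjusted p = 0.14) among them. That count was 5 with the title tag as a replicate block, with limma-voom and with the robust fit, 4 with the filter at 10, and 2 without FITCdim replicate 3. It was 0 with one common total, with quantile normalization, with no filter, and without FITChigh replicate 1, FITChigh replicate 2 or FITCdim replicate 1. The part of these other cells in the fibroblast results was not tested.

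The genes whose profile over the 6 libraries was nearest to the mean profile of the 9 tested fibroblast genes were Lrp1, Dusp6, Clic1, Ece1, Frmd4b and Ccdc80. The root mean square difference between centred log2 values was 0.13 for Lrp1, 0.15 for Dusp6 and 0.18 to 0.24 for the others, out of 6299 candidates above the median level. Lrp1, an endocytic receptor that takes up matrix proteins and proteases, had 24.8 ± 2.8 in FITChigh and 96.8 ± 27.0 in FITCdim (n = 3 each). Ccdc80, a secreted matrix protein, is the only one of these on one of the fibroblast lists. Likeness of this kind follows the gate and FITCdim replicate 1, which stands highest in the mean profile (1.58 above its own mean on the log2 scale, against 0.54 and 0.79 in the other FITCdim libraries).

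Promoter windows of 300 bases (250 before to 50 after a start site) were taken from RefSeq on GRCm38.p6, the mm10 assembly, to show what stands at the starts of genes that fell together. Of the 10 genes 7 matched; Dcn, Lum and Smoc2 did not. The windows were searched on both strands for the E-box, CANNTG, which basic helix-loop-helix factors such as Tcf21 bind, and for TATAAA. An E-box stood in 7 of the 10 windows of these 7 genes, against 72.3% of all 32851 windows, and TATAAA stands in 13.6% of all windows. Shown are Dpt and Postn, both among the large falls, and Pcolce, the smallest fall. The window of Dpt is chr1:164796413-164796712 (plus strand), that of Postn chr3:54360857-54361156 (plus strand) and that of Pcolce chr5:137611355-137611654 (minus strand). Capitals mark E-boxes and TATAAA.
Dpt: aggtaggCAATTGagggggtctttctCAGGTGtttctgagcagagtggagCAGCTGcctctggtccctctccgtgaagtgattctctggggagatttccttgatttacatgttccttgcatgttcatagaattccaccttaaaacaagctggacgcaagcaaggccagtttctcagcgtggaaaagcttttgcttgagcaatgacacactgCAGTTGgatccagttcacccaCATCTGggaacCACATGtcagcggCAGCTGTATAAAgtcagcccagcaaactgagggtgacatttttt
Postn: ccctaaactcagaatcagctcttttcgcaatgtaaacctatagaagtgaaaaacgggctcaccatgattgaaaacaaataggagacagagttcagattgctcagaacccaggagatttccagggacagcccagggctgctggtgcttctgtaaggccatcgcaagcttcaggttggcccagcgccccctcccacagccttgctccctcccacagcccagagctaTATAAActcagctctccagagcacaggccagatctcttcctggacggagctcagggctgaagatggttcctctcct
Pcolce: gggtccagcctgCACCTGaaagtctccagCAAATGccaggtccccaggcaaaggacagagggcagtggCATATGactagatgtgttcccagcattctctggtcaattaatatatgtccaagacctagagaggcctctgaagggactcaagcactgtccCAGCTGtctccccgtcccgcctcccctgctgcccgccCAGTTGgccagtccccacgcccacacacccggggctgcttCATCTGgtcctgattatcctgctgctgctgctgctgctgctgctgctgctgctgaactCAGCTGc
The windows of Dpt and Pcolce each hold 7 E-boxes, and that of Postn holds 0. TATAAA begins 26 bases before the start site of the Postn window shown and 12 bases after that of Dpt. Another Postn window, at a start site 1842 bases from the gene start in GENCODE, holds 0 E-boxes and 0 TATAAA. Gsn also gave several of the 10 windows. The windows shown were picked by the fold change of their genes, and a link between E-boxes and the change was not tested. The Pcolce window belongs to a start site 2380 bases from the gene start in GENCODE. The window of Tcf21 itself holds 0 E-boxes. A match of letters is a description, and occupancy was not measured.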

How the data were processed

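Messenger RNA of 3 FITChigh and 3 FITCdim samples was sequenced with a stranded kit and paired reads of 75 bp, per the labels' protocols. The series text calls the libraries biological replicates; p-values reflect how far these libraries spread. Per the submitters' processing notes, STAR 2.5, edgeR and mm10 were used; the counting program, annotation, use of strand and settings are not given in sources used here. Each gene has 1 signal value per library as the authors deposited it, a read count adjusted towards a common library size, neither a raw count nor CPM. Column totals stayed unequal, at 2333473 to 2443707 in FITChigh and 2030583 to 2112872 in FITCdim. Of 23410 gene lines, 6 were garbled and left out.

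Reads behind the values were recovered by undoing the quantile adjustment under a negative binomial with dispersion 0.0203; 100% came out whole within 0.1. They were used for depth, floors of 3 reads, exact 95% binomial intervals (counting error only, since amplified reads are not independent molecules) and 1 alternative test.

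The 12907 genes that reached a value of 1 in 3 or more libraries were tested on log2(value + 1) by limma 3.58.1 under R 4.3.3 (limma-trend, two-sided, no block), Benjamini-Hochberg adjusted at 0.05. Such fold changes understate those of low genes. All 3 FITCdim libraries of each tested fibroblast gene reached a value of 1, and 3 of these genes (Dpt, Dpep1 and Serpinf1) each had 1 FITChigh library under it. The genes and lists were chosen with earlier results of these data known. Named are the 10 genes, from each fibroblast and matrix list the gene with the highest mean and up to 3 called genes with the largest change, from other lists the gene with the highest mean, and the 6 nearest profiles. Other genes were named after their values were seen. Some Schwann cell and erythroid markers, and the summed levels of those lists, are not reported here. Lengths and positions are from GENCODE M21 (mm10).

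Title tags shared by the gates (none, 1-2 and 3-4) were checked for pairing. Deviations from the group means correlated at 0.157, 0.437 and 0.452 across 6453 genes for same-tagged libraries. For libraries with different tags they correlated at -0.435 to -0.044. What the tags mark is not stated in the sources used here. The main fit therefore has no block, and a fit with the tag as a replicate block is an alternative. Libraries of a group differed by more than sampling noise (3.63 to 6.09, chi-square over its degrees of freedom). Replicates are numbered in accession order.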

Additional observations from a re-analysis of the deposited data

How the results depend on the processing

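Over 15 alternatives (pseudocount, filter, scaling, robust fit, replicate block, each library left out, and limma-voom on recovered reads, which was chosen after seeing the data), Dcn, Lum, Gsn, Dpt and Postn stayed lower and past the test in each. The count of fibroblast genes called lower was 8, and 5 with quantile normalization and 5 to 8 with a library left out, and the count called higher was 0 in every alternative. The genes lost were Pcolce, Serpinf1 and Dpep1 (with quantile normalization, adjusted p = 0.085, 0.17 and 0.19), and with a pseudocount of 0.5 Serpinf1 (0.060) and Dpep1 (0.0501) were lost, leaving 6. At a filter of 10 in 3 libraries, Serpinf1 and Dpep1 were not tested. Smoc2 stood at -0.18 with one common total, -0.026 with limma-voom, and -0.11 to 0.19 with a library left out, not past the test in any. Genes called lower numbered 1748, and 1152 to 1672 with a library left out. Genes called higher numbered 324, and 41 with one common total, 1064 with the title tag as a replicate block and 67 to 341 with a library left out. The replicate block changed no call among the 9 tested fibroblast genes (8 lower). Listed genes called numbered 52, and 34 to 50 with a library left out. Cardiomyocyte markers called higher numbered 1, and 0 to 5 over the alternatives. Fits without a library also have fewer samples and test other genes. The fold change of all genes had a median of -0.01 (log2), with 15.6% of calls higher; it was -0.20 with one common total (1.84% higher) and 0.13 with quantile normalization (27.8% higher), while the replicate block had 34.1% higher. At the filter of 10, 15 of 19 other fibroblast markers, 1 of 15 procollagen genes and 4 of 4 epicardial markers fell. With 0 to 8 reads over FITChigh, Tcf21, Serpinf1, Dpt, Dpep1 and Lum are limited by depth.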
